A study of Mus musculus with 6 samples.

Results

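The genes described here mark Kupffer cells, other macrophages and leukocytes in general, in livers of mice kept alone and of control mice. All probe sets were taken whose array annotation gives exactly 1 symbol and whose symbol is among 36 chosen names, out of 18194 genes with such a probe set. All 36 were found, on 59 probe sets, and were divided into 6 Kupffer cell genes, 18 macrophage genes and 12 leukocyte genes. The comparison asks whether the content or the state of resident liver macrophages differed after social isolation.

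The liver RNA came from male BALB/c mice aged 10 weeks and was hybridised to Affymetrix mouse expression arrays, with 3 arrays of control mice and 3 of mice kept singly for 30 days. They entered the study at 4 weeks of age in cages of 5, and isolation followed 10 days of acclimatisation. An isolated mouse lived 1 to a cage inside a foam box, without social contact and with less bedding than a control, and water and the same diet were freely available to both groups. No genotype or drug treatment is given for either group, and whether each array came from a separate mouse is not stated, so p-values measure only the spread between these samples, which may be partly technical.

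Kupffer cells are the macrophages that live in the liver sinusoids, where they take up particles, ageing red cells and complement-coated microbes from portal blood. Their survival depends on signalling through the receptor encoded by Csf1r, and the transcription factor PU.1, encoded by Spi1, drives much of the macrophage gene programme. They are a minority of liver cells, so their transcripts are diluted in whole liver RNA by those of hepatocytes.

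No member was called higher or lower in isolated livers. Of the 36 members, 33 had at least 1 probe set in the upper 50% by mean log2 signal and were tested, among 22519 probe sets in all. A gene was represented by its tested probe set with the highest mean. At a limma adjusted p under 0.05, 0 members were higher, against 0.773% of all tested probe sets, and 0 were lower, against 0.857%, or 1.63% in either direction. The count at an unadjusted limma p under 0.05 was also 0, against 11.4% of all tested probe sets. Among the members, the lowest limma p was 0.0555, for Cd14, with an adjusted p of 0.455. All 48 tested probe sets of the members gave the same result, with 0 calls.

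On the log2(signal + 2) scale used for all changes, the 95% interval of isolated minus control lay inside a 2-fold change in either direction for 30 of 33 tested members, and inside a 1.5-fold change for 12. The exceptions to the 2-fold limit were Cd14, Tlr4 and Spi1, whose lower bounds were -1.06, -1.03 and -1.61. These intervals are for each gene alone and are not adjusted for the number of genes. The median distance from the estimate to either bound was 0.44. A call after adjustment over all tested probe sets needs a change larger than a gene's own such distance. Differences of about that size or smaller were therefore mostly not detectable with 3 arrays per group, and clearly larger ones could also be missed. Il1b, a gene outside the members, had a log2 change of -0.76 ± 0.21 (SE) and was not called. In whole liver RNA, fewer cells of a type and less RNA per cell cannot be told apart.

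**Figure D1:**
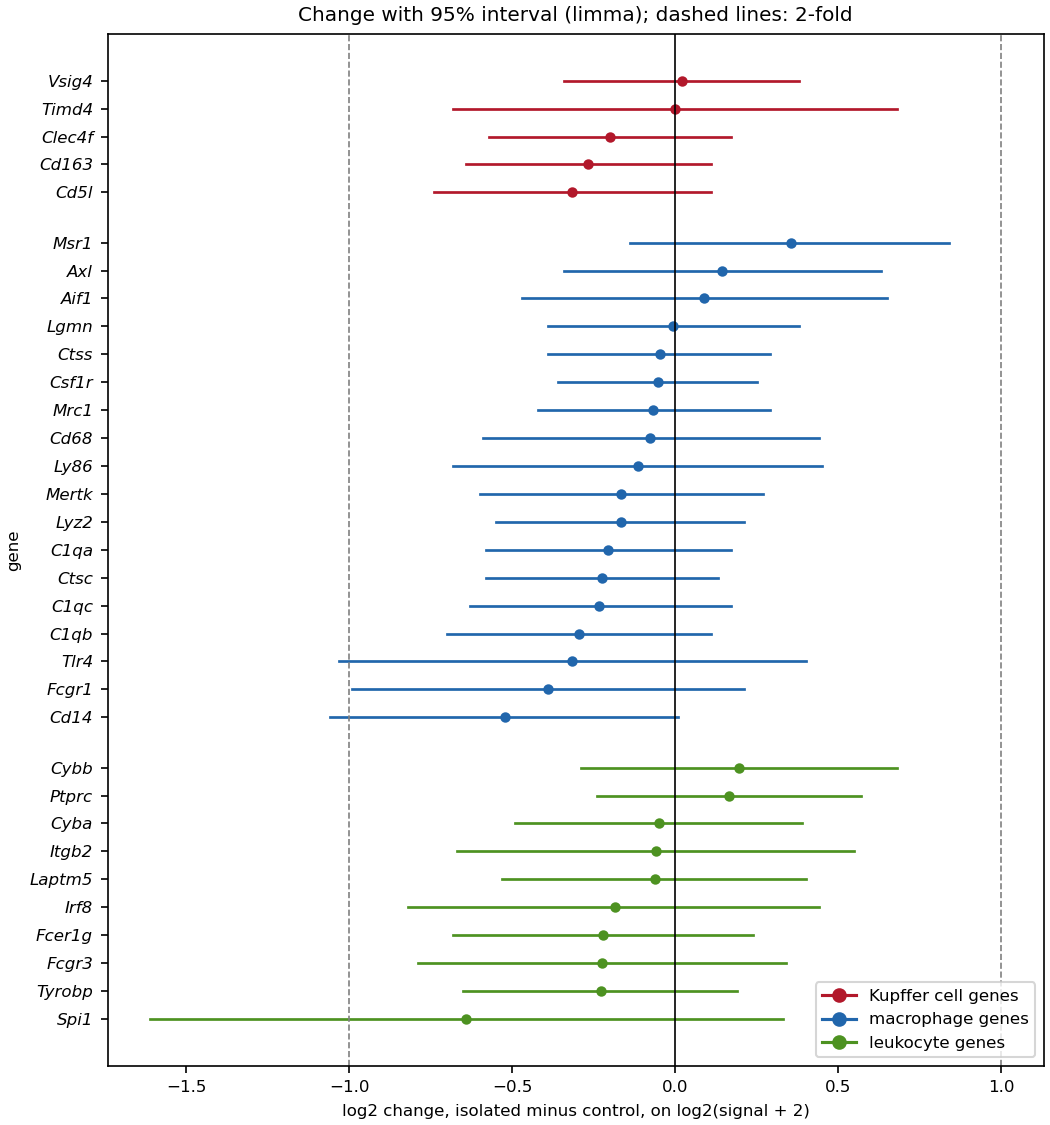
The horizontal axis gives the log2 change of each tested member, isolated minus control, with a 95% interval from limma as the line, for 5 Kupffer cell genes, 18 macrophage genes and 10 leukocyte genes on the vertical axis. Every interval crosses 0, and all but those of Cd14, Tlr4 and Spi1 lie within the dashed lines at a 2-fold change.

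The 6 Kupffer cell genes encode surface or secreted proteins of resident macrophages. Clec4f, a C-type lectin restricted to Kupffer cells in mice, gave signals of 404, 407 and 463 in control and 388, 287 and 450 in isolated livers. The groups overlapped, and isolated replicate 2 was the lowest array. Its log2 change was -0.20 ± 0.18 (SE, n = 3 per group), with a 95% interval of -0.57 to 0.17 and a limma adjusted p of 0.78.

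Cd5l, a secreted scavenger protein of tissue macrophages, gave signals of 281, 260 and 387 in control and 259, 184 and 308 in isolated livers. Here too isolated replicate 2 was lowest, while control replicate 3 was highest. The log2 change was -0.32 ± 0.21 (SE), with a limma adjusted p of 0.645.

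Cd163, the receptor that clears haemoglobin bound to haptoglobin, was the 1 member whose groups did not overlap. It gave signals of 180, 175 and 184 in control and 162, 132 and 154 in isolated livers, so every isolated array lay below every control array. Of all tested probe sets, 5.79% separated the groups in that direction, so 1 of 33 members is not above the background. The log2 change of Cd163 was -0.27 ± 0.18 (SE), with a 95% interval of -0.64 to 0.11 and a limma adjusted p of 0.661.

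Vsig4 encodes a complement receptor that binds C3 fragments. It gave signals of 491, 404 and 479 in control and 481, 375 and 550 in isolated livers, with a log2 change of 0.02 and a 95% interval of -0.34 to 0.38. Timd4, a phosphatidylserine receptor of long-lived resident macrophages, gave a dimmer signal of 26.1, 29.5 and 40.1 against 22.2, 27.8 and 49.8. Its log2 change was 0.00, with a wide interval of -0.68 to 0.68. Marco, a scavenger receptor, was not tested. Its brighter probe set gave signals of 8.51, 1.71 and 14.6 in control and 14.7, 3.76 and 25.9 in isolated livers, around or under the signal of 18 at which the filter lay.

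**Figure D2:**
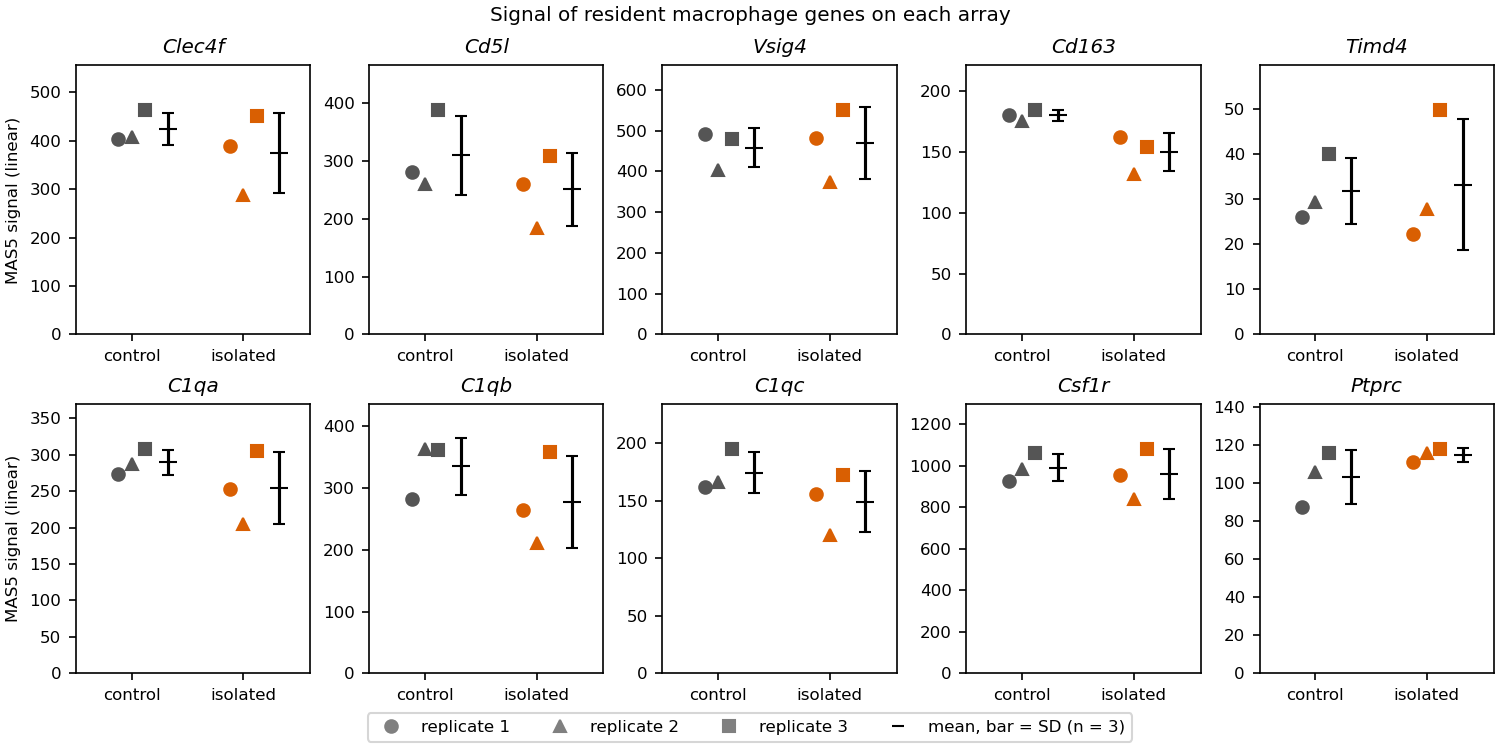
Each panel plots the linear MAS5 signal of 1 gene on the vertical axis from 0, with 3 control and 3 isolated arrays marked by replicate and the mean with SD beside them. Cd163 is the 1 gene shown whose groups do not overlap, and isolated replicate 2 is the lowest array for Clec4f, Cd5l, Cd163, Vsig4, the C1q genes and Csf1r.

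Among the 18 macrophage genes, those for the A, B and C chains of C1q shared their lowest array. C1q is the recognition component of the classical complement pathway and is made mainly by macrophages. C1qa gave signals of 274, 288 and 308 in control and 253, 205 and 305 in isolated livers. C1qb read 282, 363 and 361 against 264, 211 and 358, and C1qc read 162, 166 and 195 against 156, 120 and 172. All of them overlapped between the groups and were lowest on isolated replicate 2.

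The log2 change was -0.21 ± 0.18 (SE) for C1qa, -0.29 ± 0.20 for C1qb and -0.23 ± 0.19 for C1qc, with limma adjusted p of 0.773, 0.655 and 0.747. The other tested probe sets of C1qb changed by -0.13 and -0.21 on the log2 scale. The chains are encoded next to each other and their products assemble into 1 protein, so these are not independent readings of macrophage content. Without isolated replicate 2, the log2 changes of C1qa, C1qb and C1qc were -0.06, -0.12 and -0.08.

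The promoters of the C1q chains and of the Kupffer cell genes with the lowest log2 changes are shown. These genes were lowest on isolated replicate 2, as were 18 of the 33 tested members, so the dip is not particular to them. Each window runs from 250 bases before to 50 bases after the start of the gene, from RefSeq on GRCm38.p6, written 5′ to 3′ on the strand of the gene. Capitals mark matches to GAGGAA, the purine-rich core bound by PU.1, on either strand. C1qa has no entry in the promoter table. The windows are chr6:83656067-83656366 (minus strand) for Clec4f, chr3:87357631-87357930 (plus) for Cd5l, chr6:124304401-124304700 (plus) for Cd163, chr4:136886151-136886450 (minus) for C1qb and chr4:136892865-136893164 (minus) for C1qc.
Clec4f: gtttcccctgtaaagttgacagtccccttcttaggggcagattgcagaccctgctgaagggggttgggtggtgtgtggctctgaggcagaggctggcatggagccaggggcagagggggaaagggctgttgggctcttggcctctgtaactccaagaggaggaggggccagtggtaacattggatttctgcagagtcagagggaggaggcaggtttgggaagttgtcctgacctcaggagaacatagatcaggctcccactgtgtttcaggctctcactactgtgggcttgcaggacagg
Cd5l: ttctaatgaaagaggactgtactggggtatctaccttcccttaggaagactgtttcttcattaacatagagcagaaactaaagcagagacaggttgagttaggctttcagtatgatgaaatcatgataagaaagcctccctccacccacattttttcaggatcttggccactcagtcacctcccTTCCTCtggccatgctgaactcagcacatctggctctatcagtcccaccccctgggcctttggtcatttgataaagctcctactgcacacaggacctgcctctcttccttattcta
Cd163: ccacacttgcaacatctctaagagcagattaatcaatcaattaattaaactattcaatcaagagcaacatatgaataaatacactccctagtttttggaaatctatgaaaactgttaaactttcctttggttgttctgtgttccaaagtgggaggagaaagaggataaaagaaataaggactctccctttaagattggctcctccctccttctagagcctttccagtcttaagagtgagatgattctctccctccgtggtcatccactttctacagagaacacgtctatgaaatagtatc
C1qb: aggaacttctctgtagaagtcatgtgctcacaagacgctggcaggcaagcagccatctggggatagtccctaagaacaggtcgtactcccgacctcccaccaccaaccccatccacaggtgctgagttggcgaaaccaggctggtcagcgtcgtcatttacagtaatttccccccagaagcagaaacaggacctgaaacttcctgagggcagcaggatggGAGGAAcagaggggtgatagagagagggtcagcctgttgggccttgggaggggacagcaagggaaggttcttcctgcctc
C1qc: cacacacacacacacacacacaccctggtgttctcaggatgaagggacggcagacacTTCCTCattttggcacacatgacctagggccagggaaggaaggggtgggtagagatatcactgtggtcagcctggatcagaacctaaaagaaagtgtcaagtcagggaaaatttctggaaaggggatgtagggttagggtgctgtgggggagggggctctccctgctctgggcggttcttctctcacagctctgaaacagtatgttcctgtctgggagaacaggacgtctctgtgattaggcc

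The core occurred 1 time each in the windows of Cd5l, C1qb and C1qc, and 0 times in those of Clec4f and Cd163. In the window of Vsig4, which was also lowest on isolated replicate 2 and is not printed, it occurred 2 times. Promoter windows were found for 28 of the 36 members, 32 windows in all, and 18 of these windows held GAGGAA on either strand. Of all 32851 windows of the same length, 28.3% held it, against 56.2% of the members' windows. The letters TGCTGAC, part of the site of MAF factors, also sought on both strands, was in 3 member windows and in 4.67% of all windows. The letters TATAAA on either strand were in 5 member windows and in 13.6% of all. Some genes have more than 1 window, and such windows can share bases. Overlap between motifs was not counted, and a match describes letters only.

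Among the receptors for growth factors and antibodies, Csf1r, the receptor for CSF1 and IL-34, gave signals of 928, 982 and 1060 in control and 956, 841 and 1080 in isolated livers, with a log2 change of -0.05 and a 95% interval of -0.36 to 0.25. Its other probe sets changed by 0.02 and -0.17. The high-affinity IgG receptor gene Fcgr1 read 53.7, 42.9 and 29.7 against 37.1, 28.2 and 27.8, with a log2 change of -0.39 ± 0.29 (SE), and its other probe set gave -0.38. The groups overlapped, and control replicate 1 was the highest array.

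Fcgr3, an activating IgG receptor of the leukocyte list, gave signals of 113, 77.3 and 78 in control and 46.3, 77.7 and 117 in isolated livers, so its lowest and highest arrays were both of isolated mice. Tyrobp and Fcer1g, of the same list, encode signalling adaptors that pair with such receptors. Tyrobp read 100, 107 and 110 against 81.7, 79.7 and 111, and Fcer1g read 82.4, 84 and 73.5 against 67.2, 53.7 and 87.6. In both, isolated replicates 1 and 2 lay under every control and isolated replicate 3 above every control. Their log2 changes were -0.23 ± 0.20 and -0.22 ± 0.22 (SE), with limma adjusted p of 0.772 and 0.806.

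Scavenger receptors and engulfment receptors did not share 1 direction. Mrc1, the mannose receptor, which sinusoidal endothelial cells also make, gave signals of 387, 343 and 476 in control and 371, 363 and 407 in isolated livers, with a log2 change of -0.07. Msr1, scavenger receptor A, read 58.5, 51.7 and 97.8 against 78.8, 90.8 and 88.2. Its log2 change of 0.35 was the highest of the members, with a 95% interval of -0.14 to 0.84 and a limma adjusted p of 0.652.

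The result for Msr1 rested on control replicates 1 and 2, the lowest arrays, while control replicate 3 was the highest of all. Its log2 change was 0.62 without control replicate 3 and 0.18 without control replicate 2, and its other probe sets gave 0.47, -0.04 and 0.09. The receptor tyrosine kinases that recognise dying cells, Axl and Mertk, changed by 0.14 ± 0.23 and -0.16 ± 0.21 (SE). Mertk was lowest on isolated replicate 2, at 106 against 138 to 185 in controls.

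Among the lysosomal and secreted enzymes of macrophages, Lgmn, the protease legumain, gave signals of 129, 131 and 129 in control and 113, 134 and 142 in isolated livers, with a log2 change of -0.01. Ctss, cathepsin S, read 464, 483 and 536 against 448, 432 and 564, with a log2 change of -0.05 and a 95% interval of -0.39 to 0.29. Ctsc, the cathepsin that activates leukocyte serine proteases, read 847, 875 and 1140 against 955, 641 and 865, with a log2 change of -0.22, and its other tested probe set gave -0.46. Lyz2, lysozyme, changed by -0.17 ± 0.18 (SE), and Cd68, a lysosomal membrane protein, by -0.08 ± 0.25. Aif1, a calcium-binding protein of macrophages, gave signals of 35.1, 37 and 31.4 in control and 32.4, 39.1 and 39.1 in isolated livers, with a log2 change of 0.09. All of these groups overlapped.

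Cd14, the co-receptor that hands bacterial lipopolysaccharide to TLR4, had the lowest p of the members. It gave signals of 44.3, 72.8 and 75.1 in control and 38.3, 53.8 and 38.1 in isolated livers. Control replicate 1 fell among the isolated arrays, so the groups overlapped. The log2 change was -0.52 ± 0.26 (SE), with a 95% interval of -1.06 to 0.01. Hepatocytes can also express Cd14, so this gene is less specific to macrophages than the C1q genes.

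Tlr4 gave signals of 25.8, 29.8 and 33.1 in control and 15.1, 24.9 and 33.1 in isolated livers, with a log2 change of -0.32 ± 0.34 (SE). Its other tested probe set gave 0.83, the opposite sign, with control replicate 3 at 2.77 against 22 to 33.1 on the remaining arrays. The probe sets of Tlr4 disagreed in sign, and no direction is given for it. Ly86, the partner protein of the related receptor CD180, read 50.2, 51.8 and 47 against 29.3, 49.9 and 64.7, with a log2 change of -0.11.

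The 12 leukocyte genes are shared by myeloid cells and, in part, by lymphocytes. Ptprc, which encodes the leukocyte surface protein CD45, gave signals of 87.7, 106 and 116 in control and 111, 116 and 118 in isolated livers. Its log2 change was 0.16 ± 0.19 (SE), with a 95% interval of -0.24 to 0.57, and the groups overlapped. Laptm5, a lysosomal protein of blood cells, read 79.2, 53.7 and 68.7 against 60.4, 72.7 and 58.3, with a log2 change of -0.06. Of its other tested probe sets, 1 gave 0.11 and 1 gave 0.40, and on the latter every isolated array lay above every control (35.7, 40.3 and 43.6 against 49.1, 48.8 and 61.9), as on 9.62% of all tested probe sets.

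Cybb and Cyba encode the membrane subunits of the phagocyte NADPH oxidase, the enzyme of the respiratory burst. Cybb gave signals of 67.9, 50 and 67.5 in control and 60.9, 61.5 and 93 in isolated livers, with a log2 change of 0.19 ± 0.23 (SE) and a 95% interval of -0.29 to 0.68. Cyba, which other cell types also express, read 72.3, 71.9 and 62.5 against 67.4, 57.2 and 75.6, with a log2 change of -0.05. Itgb2, the shared chain of the leukocyte integrins, read 41.8, 32.9 and 34.7 against 24.3, 35 and 48.9, so the isolated arrays bracketed the controls.

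The partner chains Itgam and Itgax were under the filter and were not tested. Itgam gave signals of 11.6, 6.47 and 7.13 in control and 20.5, 1.37 and 8.47 in isolated livers, and Itgax read 4.73, 13.9 and 12.5 against 7.91, 18.4 and 19.6. No detection calls were at hand, so these signals are not told apart from background.

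The transcription factor genes were dim and varied widely. Spi1 gave signals of 32.6, 44.6 and 24.8 in control and 20.6, 7.28 and 52.3 in isolated livers, so both the lowest and the highest array were of isolated mice. Its log2 change of -0.64 ± 0.47 (SE) was the lowest of the members and became -0.00 without isolated replicate 2 and -1.28 without isolated replicate 3. Irf8, a factor for monocyte and dendritic cell development, read 31.6, 41.6 and 58.3 against 53.9, 25.5 and 37.1, with a log2 change of -0.19, and its other probe set gave 0.30.

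By list, 3 of 5 tested Kupffer cell genes, 15 of 18 macrophage genes and 8 of 10 leukocyte genes had log2 changes below 0. The medians were -0.20, -0.14 and -0.12 in that order, beside a median of 0.035 over all tested probe sets. In all, 26 of 33 members were below 0, as were 44.6% of all tested probe sets. That count includes Tlr4, Laptm5 and Irf8, whose other tested probe sets were above 0. Counted by probe set, 32 of the 48 tested were below 0. With the mean of probe sets per gene, 23 of 33 members were below 0, against 44.9% of everything in that fit. Members share arrays and, in part, cells, so these counts are descriptions and carry no test, and no list can be said to differ from another.

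Isolated replicate 2 was the array on which members were most often lowest. Of the 33 tested members, 18 had their lowest value on isolated replicate 2, where 28.8% of all tested probe sets also had theirs. With each array centred on its median, 42.4% of the members and 20.7% of all tested probe sets were lowest there. The median deviation on isolated replicate 2 from the mean over the 6 arrays was -0.30 log2 units for Kupffer cell genes, -0.41 for the C1q chains, -0.19 for macrophage genes and -0.16 for leukocyte genes, against -0.09 for all tested probe sets. The members deviated upward on control replicate 3 and isolated replicate 3, with medians of 0.17 and 0.18, where all tested probe sets had 0.12 and 0.17.

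**Figure D3:**
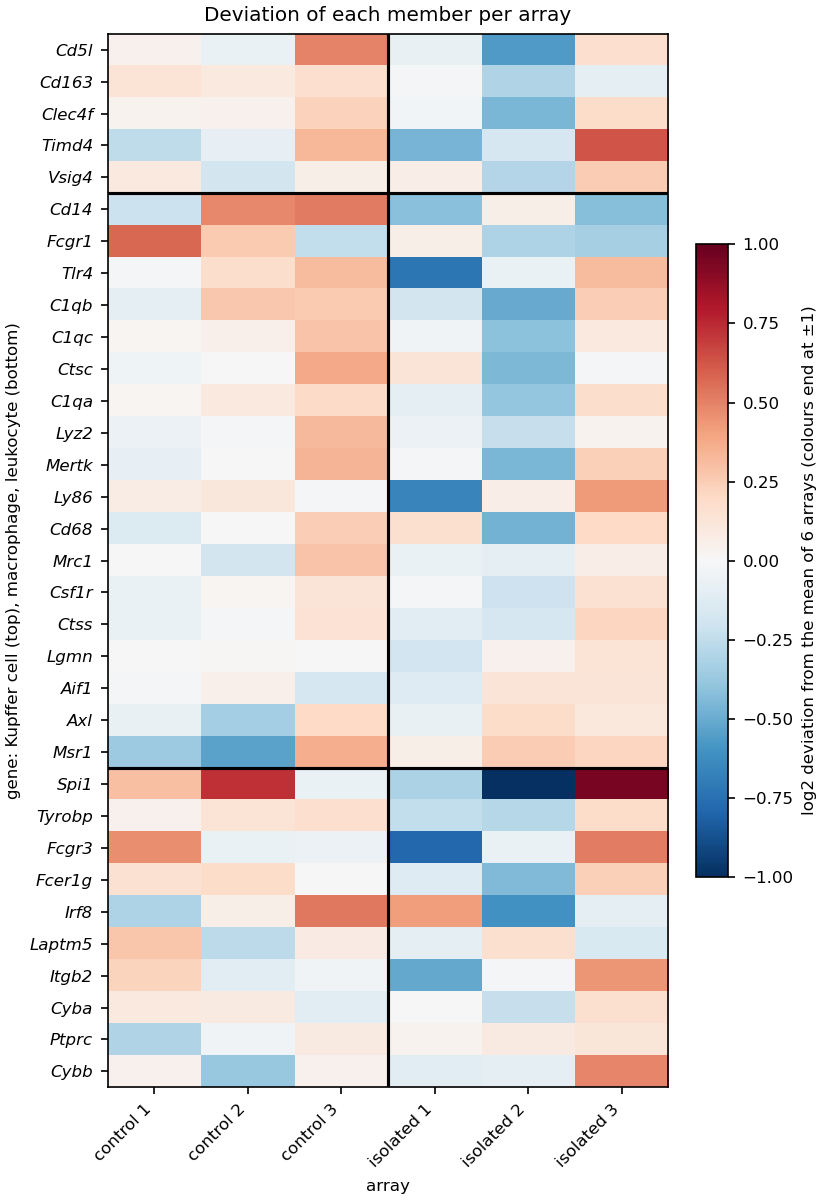
Rows are the 33 tested members by list, columns are the 6 arrays, and colour gives the log2 deviation of the array from that gene's mean over all arrays. Isolated replicate 2 holds the lowest value for 18 of the 33 genes, and isolated replicate 3 and control replicate 3 hold the highest for 14 and 15.

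Without isolated replicate 2, the median log2 change was -0.02 for Kupffer cell genes, -0.05 for macrophage genes and -0.03 for leukocyte genes, and 20 of 33 members were below 0. Without isolated replicate 3, the medians were -0.32, -0.25 and -0.24. Other arrays mattered as well. The macrophage median was -0.04 without control replicate 3, and the leukocyte median was -0.03 without control replicate 1 and, leaving out isolated replicate 1 instead, -0.04. All 3 medians stayed below 0, and below the median of all tested probe sets, in each fit with 1 array left out, and 0 members were called in them by limma.

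**Figure D4:**
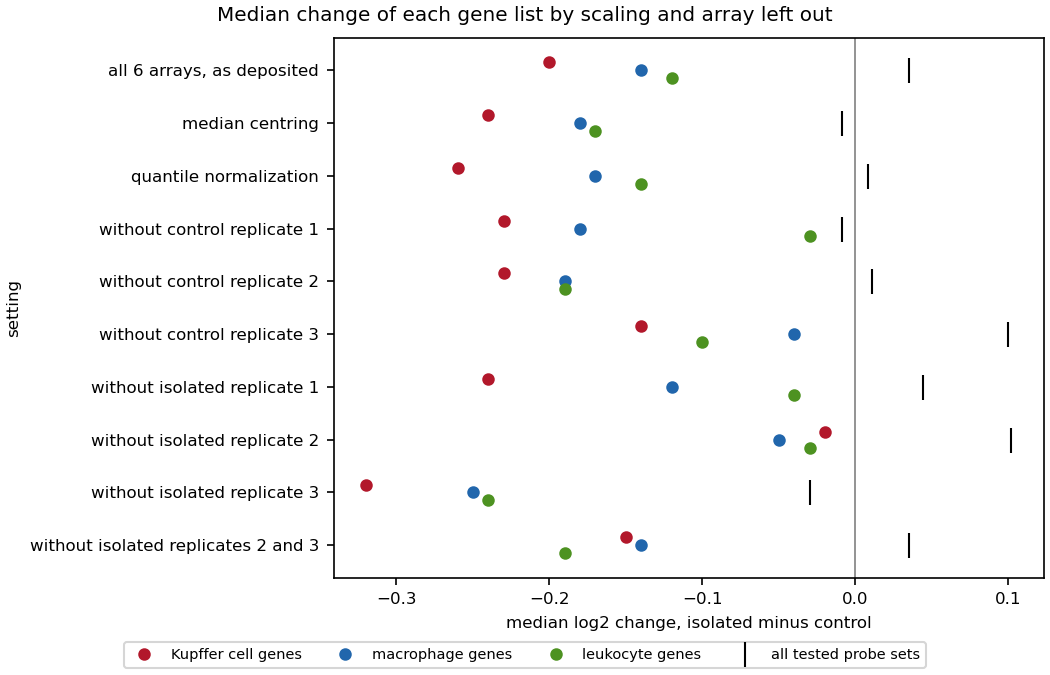
Points give the median log2 change of each gene list, isolated minus control, on the horizontal axis, for all 6 arrays, for other scalings and with arrays left out, and black ticks give the median of all tested probe sets. The 3 lists lie between -0.32 and -0.02 in the settings drawn, and the Kupffer cell genes lie closest to 0 without isolated replicate 2.

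Other genes that describe Kupffer cells or their activity were taken from 7 fixed lists, in which 0 tested genes were called in either direction. Of 11 tested further Kupffer cell genes, 5 were above and 6 below 0, with a median log2 change of -0.06. Clec1b, Fcna and Slc40a1 changed by -0.41, -0.34 and -0.33, with limma adjusted p of 0.46, 0.506 and 0.478. Hpgd changed by 0.40, with an adjusted p of 0.22. On it every isolated array lay above every control, as on 9.62% of all tested probe sets. Adgre1, which encodes the F4/80 antigen of mouse macrophages, gave signals of 98.7, 103 and 129 in control and 128, 85.3 and 125 in isolated livers, with a log2 change of 0.02. The C-type lectin gene Clec4n read 29.3, 37.6 and 34 against 75.8, 46.3 and 47.6, without overlap, with a difference of 0.69 ± 0.26 log2 units (SE) and a limma adjusted p of 0.273. C6, a terminal complement component, read 1260, 1120 and 1190 against 846, 725 and 1020, also without overlap, with a log2 change of -0.47 ± 0.15 and an adjusted p of 0.158.

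The C6 value passed with median centring (limma adjusted p 0.0379) and with quantile normalization (0.0354). Which cells gave the C6 signal cannot be told from whole liver RNA. Of 8 tested regulators of Kupffer cell identity, 4 were above and 4 below 0. Id3 gave signals of 313, 412 and 295 in control and 364, 603 and 434 in isolated livers, with a log2 change of 0.44. Id1 read 82.3, 97 and 74.2 against 25.7, 79.4 and 64.7, with a log2 change of -0.69, and isolated replicate 1 was the lowest array. Their limma adjusted p were 0.38 and 0.368.

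Inflammatory activation genes were mostly under the filter, with 4 of 12 tested. Il1b, the cytokine interleukin 1 beta, gave signals of 72.9, 99.6 and 86 in control and 48.1, 51.5 and 49.3 in isolated livers, so every isolated array lay below every control. Its log2 change was -0.76 ± 0.21 (SE), with a 95% interval of -1.21 to -0.31 and a limma adjusted p of 0.0875, which did not pass. With array weights it passed (0.0477). The chemokine gene Ccl4 changed by -0.69 ± 0.33, with an adjusted p of 0.437. Il18, another cytokine gene of the interleukin 1 family, gave a log2 change of 0.04, and Il1rn gave -0.64 ± 0.34, with an adjusted p of 0.512. Of the 4 tested, 3 were below 0 and 1 above, with a median log2 change of -0.66. Of all tested probe sets, 44.6% were below 0.

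Neutrophils also make Il1b. The summed signal of 7 measured neutrophil markers of 9 was 118 to 154 in controls and 45.9 to 95.4 in isolated livers, mostly from probe sets under the filter. Each of these markers alone overlapped between the groups, and 0 of the 2 tested were called. S100a9 gave a log2 change of -1.09 and Ngp one of -0.43, with limma adjusted p of 0.339 and 0.799. S100a9 read 24.7, 23.4 and 36.1 in control and 24.9, 9.97 and 6.35 in isolated livers. Ngp read 15.5, 32.4 and 30.3 against 28.9, 12.3 and 16.2. On isolated replicates 2 and 3 both lay under the signal of 18 at which the filter lay, so their changes are uncertain in size. Their part in the Il1b values was not tested.

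In the other lists, 6 genes of CSF1 receptor ligands and adaptor signalling were tested, with log2 changes from -0.42 (Sirpa) to 0.50 (Syk). The ligand gene Csf1 read 115 ± 25.8 and 107 ± 32.9 (SD, n = 3 per group), and Il34 read 25.6 ± 6.3 and 24 ± 5.39. Of 4 tested alternative activation genes, all were below 0, as were 44.6% of all tested probe sets. Tgfb1 changed by -0.37 ± 0.30 and Il4ra by -0.27 ± 0.59 (SE). Il4ra read 25.8, 22 and 15.4 in control and 44.3, 27.1 and 2.88 in isolated livers. Its sign rested on isolated replicate 3, as the other isolated arrays lay above every control. Arg1, in the same list at -0.01, is a urea cycle enzyme of hepatocytes, so its level in whole liver does not describe macrophages. Among 10 engulfment and NADPH oxidase genes, Ncf1, a cytosolic oxidase subunit whose groups did not overlap, gave a log2 change of -0.48 and Cd36 one of 0.56. Cd36 read 71.1, 49.2 and 63 in control and 59.5, 106 and 116 in isolated livers. It lay above the controls only on isolated replicates 2 and 3. There the adipocyte marker Adipoq, under the filter, was also high, while the adipocyte marker Cidec, at 19 and 19.5, was not. A link between these values was not tested. Among 9 lysosome-rich macrophage genes, Cd9 changed by -0.41 and Ctsz by -0.16.

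The livers carried the markers of their tissue. Hepatocyte markers, of which Apoa1 and Ttr were the brightest, summed to 56400 to 59400 in controls and 52700 to 58200 in isolated livers over 6 measured of 8. Sinusoidal endothelial markers, led by Clec4g and Fcgr2b, summed to 2940 to 3780 and 3030 to 3430 over all 10. Stellate and fibroblast markers, led by Dcn and Reln, summed to 2770 to 3750 and 3070 to 3570 over 9, and monocyte markers, led by Plac8 and Ms4a6c, to 198 to 307 and 253 to 275 over 7 of 8.

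Adipocyte markers, 6 measured of 8 and led by Fabp4 and Cidec, summed to 160 to 266 in controls and to 244, 414 and 525 in isolated replicates 1, 2 and 3. Fabp4 made up most of each sum, at 117, 202 and 157 in control and 203, 300 and 404 in isolated livers. It differed by 0.90 ± 0.23 log2 units (SE), and its limma adjusted p was 0.0578. Cidec, the other tested marker, did not rise. It read 19.9, 32.8 and 22.9 against 20.5, 19 and 19.5, with a log2 change of -0.30 and an adjusted p of 0.847. Adipoq, a defining marker that was under the filter and not tested, read 59.5 and 54.8 on isolated replicates 2 and 3 against 3.78 to 15.6 on the others. Fat tissue holds macrophages too, and its part in the members' values was not tested. On isolated replicate 1 alone, against all controls, the medians were -0.15, -0.14 and -0.19 for the Kupffer cell, macrophage and leukocyte genes.

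Markers of T and NK cells, led by Il2rb and Gzma, summed to 65.8 to 99.9 and 59.9 to 77.1 over 9 of 10, all under the filter. B and plasma cell markers, led by Ighm and Jchain, summed to 196 to 208 and 172 to 266 over 7 of 8. Dendritic cell markers, led by Zbtb46 and Cd209a, summed to 82.4 to 93.6 and 82.5 to 93.7 over 7 of 8. Cholangiocyte markers, led by Epcam and Krt19, summed to 44.8 to 88.9 and 90.5 to 100 over 5 of 6, without overlap. Each of them alone overlapped between the groups. The 2 tested, Krt19 and Epcam, changed by 0.71 and -0.10 on the log2 scale, and the others were under the filter. Erythroid markers, led by Alas2 and Slc4a1, summed to 799 to 1060 and 613 to 1010 over 4 of 6. No tested marker of any of the 11 lists was called.

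The median signal per array ran from 18.4 to 22.1, and log2 values of arrays within a group correlated at 0.969 to 0.974 over tested probe sets, which are not independent of each other. The ratio of 3′ to 5′ signal, a measure of RNA integrity, was 0.705 ± 0.0138 in controls and 0.691 ± 0.00354 in isolated livers for Gapdh (SD, n = 3 per group, two-sided exact permutation p = 0.2). For Actb it was 2.21 ± 0.0951 and 2.16 ± 0.182 (two-sided exact permutation p = 0.9). The smallest p that 3 arrays against 3 can give is 0.1.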

How the data were processed

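The deposited values are MAS5 intensity signals on a linear scale, per the submitters' processing notes, 1 array per sample. MAS5, an Affymetrix algorithm, summarises the probe pairs of a probe set as 1 signal. Its scaling target and version are not given here, and detection calls were not used. RNA was isolated with TRIzol and RNeasy and biotin-labelled, per the labels' protocols.

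The table held 45101 probe sets, 64 of them controls. After adding a pseudocount of 2 and taking log2, which understates the change of dim genes, the brighter 50% of probe sets, ranked on mean log2 over the 6 arrays (22519, floor 4.32), were fitted with limma 3.58.1 in R 4.3.3. The fit had 2 groups and eBayes with an intensity trend (prior weight 16.1 degrees of freedom against 4 from the arrays). The two-sided p-values were adjusted by Benjamini-Hochberg across every probe set fitted. The procedure was tested on simulated data.

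In the platform annotation, 34958 probe sets had 1 symbol, 932 several and 9211 none, and those with several were not used for names. All 59 member probe sets matched RefSeq by gene identifier. Named genes were all members, called genes and the 2 largest changes of each pathway list, and the 2 brightest genes of each cell type list. Adgre1, Clec1b, Fcna, Slc40a1, Hpgd, Il1rn, Il18, Csf1, Il34, Arg1 and Adipoq were added after their values were seen. The members and lists were chosen with earlier results of these data known. Alternatives covered the pseudocount, filter, scaling, variance model, probe set per gene and arrays left out. Across probe sets, the deviations of samples with the same replicate number in the labels correlated at 0.00777, 0.0436 and 0.00491. A shift common to a whole array does not enter such correlations, so they do not settle whether the numbers pair samples. The main fit used no pairing, and the replicate number was a block in 1 alternative. Precision is limited by 3 arrays per group. Permutation tests used scipy 1.17.1 and figures matplotlib 3.10.9.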

Additional observations from a re-analysis of the deposited data

How the results depend on the processing

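The 18 alternatives covered the pseudocount, filter, scaling, variance model, array weights, replicate block, probe set per gene and arrays left out. In these, 0 members were called, the lowest limma adjusted p of a member was 0.22, and every list median moved by less than the spread between arrays; 14 of 33 members kept their sign throughout. With the replicate number as a block, 265 probe sets were called higher in all and 0 members. Probe sets called higher were 81 and lower 101 with no filter, 15 and 16 with no intensity trend, and 88 higher without isolated replicates 2 and 3. With 1 array left out, 97 (without isolated replicate 3; 115 without control replicate 2) to 187 were higher and 82 (without control replicate 3) to 243 lower. Of the pathway genes, 1 was called with quantile normalization, median centring, array weights or without isolated replicates 2 and 3 (there Id1, limma adjusted p 0.00119, where the spread of the lone isolated sample is taken from the controls). At an unadjusted limma p under 0.05, 4 members passed with median centring (C1qb, Cd14, Cd163 and Cd5l) and 4 with quantile normalization, against 14.5% and 14.6% of all probe sets.

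Some signs turned, and the cause was not tested. The log2 change was -0.00143 for Timd4 with a pseudocount of 1. It was -0.0368 for Vsig4 with quantile normalization, and -0.0243 for Vsig4 and -0.0445 for Timd4 with median centring. With array weights it was -0.112 for Timd4, 0.0264 for Cd68 and 0.059 for Irf8. Without isolated replicates 2 and 3 it was -0.466 for Timd4, 0.119 for Cd68, 0.0161 for Ctsc, -0.0836 for Aif1, -0.00217 for Axl, -0.00836 for Cybb and 0.327 for Irf8. With the mean of probe sets per gene it was 0.256 for Tlr4, 0.15 for Laptm5 and 0.0587 for Irf8. With 1 array left out it ran from -0.103 to 0.171 for Vsig4, -0.316 to 0.233 for Timd4, -0.141 to 0.0367 for Csf1r, -0.197 to 0.141 for Cd68, -0.175 to 0.0596 for Mrc1, -0.164 to 0.0268 for Ctss, -0.0757 to 0.0872 for Lgmn and -0.356 to 0.189 for Ly86. It ran from -0.324 to 0.0247 for Mertk, -0.537 to 0.114 for Fcgr3, -0.000974 to 0.297 for Cybb, -0.142 to 0.0532 for Cyba, -0.209 to 0.0628 for Laptm5, -0.295 to 0.182 for Itgb2 and -0.441 to 0.0693 for Irf8.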
